A study of Homo sapiens with 6 samples.

Results

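Semaphorins, plexins and neuropilins were measured as a family of ligands and receptors in MCF10A, an immortalised, non-tumorigenic human mammary epithelial cell line. The members are the protein-coding genes of the deposited tables named SEMA with a class digit, PLXNA to PLXND, or NRP1 and NRP2. They number 30 of the 52401 genes listed, namely 19 semaphorins, 9 plexins and 2 neuropilins. The F1F2 line stably carries HA-tagged flotillin 1 and mCherry-tagged flotillin 2, brought in by 2 retroviral vectors, and was selected with both puromycin and hygromycin. The mCherry line, its control, carries 1 vector that encodes the fluorescent protein and was selected with puromycin alone. Each group is 1 stable line with 3 libraries, and both lines grew in the same medium with horse serum, insulin, EGF, hydrocortisone and cholera toxin. The design therefore cannot tell apart raised flotillin, the second vector, hygromycin and the choice of line. The labels do not say whether the 3 samples of a line were separate cultures, and p-values therefore reflect only the spread among these samples, which can be technical.

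Semaphorins are secreted or membrane-bound guidance cues that share a sema domain, and plexins are the transmembrane receptors that bind it. Most secreted class 3 semaphorins need a neuropilin to hold them on a plexin of the A type, while transmembrane semaphorins bind plexins directly. Bound plexins act through small GTPases and loosen actin and integrin attachment, and in epithelia they take part in branching, migration and repair. Neuropilins also bind forms of VEGF, and plexins of the B type can associate with the receptor tyrosine kinases MET and ERBB2.

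Levels per library below are normalized read counts, that is, whole reads divided by the library's size factor. They were recovered from the authors' group means, and the 3 libraries of a line are numbered by falling size factor, not by the labels' replicate numbers. The genes recovered held 18510730 to 19575786 reads in F1F2 libraries and 19466021 to 19647934 in mCherry libraries. The members took 34862 to 37366 of these reads in F1F2 libraries and 47120 to 78480 in mCherry libraries. FLOT1 had 17243, 14137 and 18932 normalized counts in F1F2 libraries, against 1898, 1359 and 1166 in mCherry libraries, and was thus higher in every F1F2 library. Library 3 of both lines often stood apart from the other 2 in the same direction. Among the 18 members with a mean of at least 100, it was the highest of its line in both lines for 6 and the lowest in both for 6. The same count over all genes was not made, so the pattern is described for the members only. Results are therefore also given from limma, a linear model fitted to all genes, with library 3 of both lines left out. That fit holds 2 libraries per line and called 7067 genes, against 3713 with all libraries. It follows from a pattern seen in these same values, so its smaller adjusted p-values are not separate support. Of 7 basal mammary markers, 5 were lower in F1F2, with TP63 at a mean of 25.6 normalized counts in F1F2 and 1765 in mCherry. KRT5 had the higher mean in F1F2, at 67351 against 48381 in mCherry, and was not called. The 5 basal markers recovered per library leave out KRT5 and LAMB3. Their summed level was 35856 to 52612 in F1F2 libraries and 60661 to 85056 in mCherry libraries. Over all 7 basal markers the group means summed to 124362 in F1F2 and 143427 in mCherry. The endothelial sum was 425 to 816 in F1F2 libraries and 280 to 961 in mCherry libraries. KDR made up most of that sum, with means of 588 in F1F2 and 641 in mCherry, and was not called. TEK (means of 36.4 in F1F2 and 52.1 in mCherry) and TIE1 (10.1 in F1F2 and 14.4 in mCherry) were not called either. VWF, CDH5 and CLDN5 were under 10 in both means. Of the neuron list SNAP25 and STMN2 were at 0, and its sum was 767 to 3633 in F1F2 libraries and 136 to 341 in mCherry libraries. MAP2 made up most of that sum, with means of 1712 ± 1626 in F1F2 and 209 ± 101 in mCherry (SD), and had no adjusted p. SYT1 and RBFOX3 were not called, and RBFOX3 had the lower mean in F1F2. The luminal sum was 3636 to 4116 in F1F2 libraries and 1081 to 4534 in mCherry libraries. KRT8 made up most of it and was not called, while FOXA1 fell (means of 41.6 in F1F2 and 158 in mCherry, adjusted p = 0.0073 in the authors' deposited table). The immune sum was 1031 to 1764 in F1F2 libraries and 627 to 1742 in mCherry libraries, with CD3E at 0. Of the immune list the myeloid markers CSF1R (88.9 in F1F2 and 344 in mCherry, means) and ITGAM (1.35 in F1F2 and 27.1 in mCherry) fell, and CD68, which makes up most of the sum, was not called. The fibroblast marker DCN rose to an authors' mean of 42467 in F1F2, against 4659 in mCherry, PDGFRB also rose and COL1A1 fell. The 7 other fibroblast markers summed to 450 to 1851 in F1F2 libraries and 535 to 1174 in mCherry libraries, with THY1 at 0. Glial markers stayed under 10. The part of these shifts in the results below was not tested.

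Most members of the family that changed were lower in F1F2 cells. In the authors' deposited table of means, 27 members had an adjusted p, and 12 of them (44.4%) fell while 1 (3.70%) rose at an adjusted p under 0.05. Over all 19733 genes tested in that table, 12.0% fell and 11.6% rose. The 13 called members compare with 23.6% of all tested genes called in either direction. Where genes averaged at least 100, the share called was 30.1%, with 13.8% lower and 16.3% higher. The median log2 fold change of F1F2 over mCherry was -0.88 over the 27 members and -0.04 over all tested genes, in the authors' deposited table. By role, 9 of 17 tested semaphorins fell and none rose, and of 10 tested receptors 3 fell and 1, PLXNC1, rose. In bulk RNA, fewer cells that express a gene and less RNA per cell cannot be told apart.

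The remaining 17 members were not called, 3 of them for want of an adjusted p. Their group means of F1F2 were still below those of mCherry in most cases, and 27 of all 30 members had the lower mean in F1F2. The share of all genes with a lower mean was not counted, and the median log2 fold change of all tested genes was -0.04. Of the 27, SEMA3D, SEMA3E and PLXNA4 had too few reads to show a direction. The 3 F1F2 libraries were all below the 3 mCherry libraries in 15 members and all above in 2, PLXNC1 and SEMA3C. For tested genes at large these shares were 20.2% and 21.4%. The limma fit to the recovered libraries called the same 13 members in the same directions, 12 lower and 1 higher, beside 11.1% and 12.2% of the 15900 genes fitted. Without library 3 of both lines it called 16 members lower and 2 higher, beside 20.7% and 23.4% of all genes fitted. The authors' deposited Tuxedo table called 10 of 23 tested members lower and 1 higher, beside 10.0% and 6.93% of all genes it tested, and 10 members were called in both deposited tables.

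**Figure D1:**
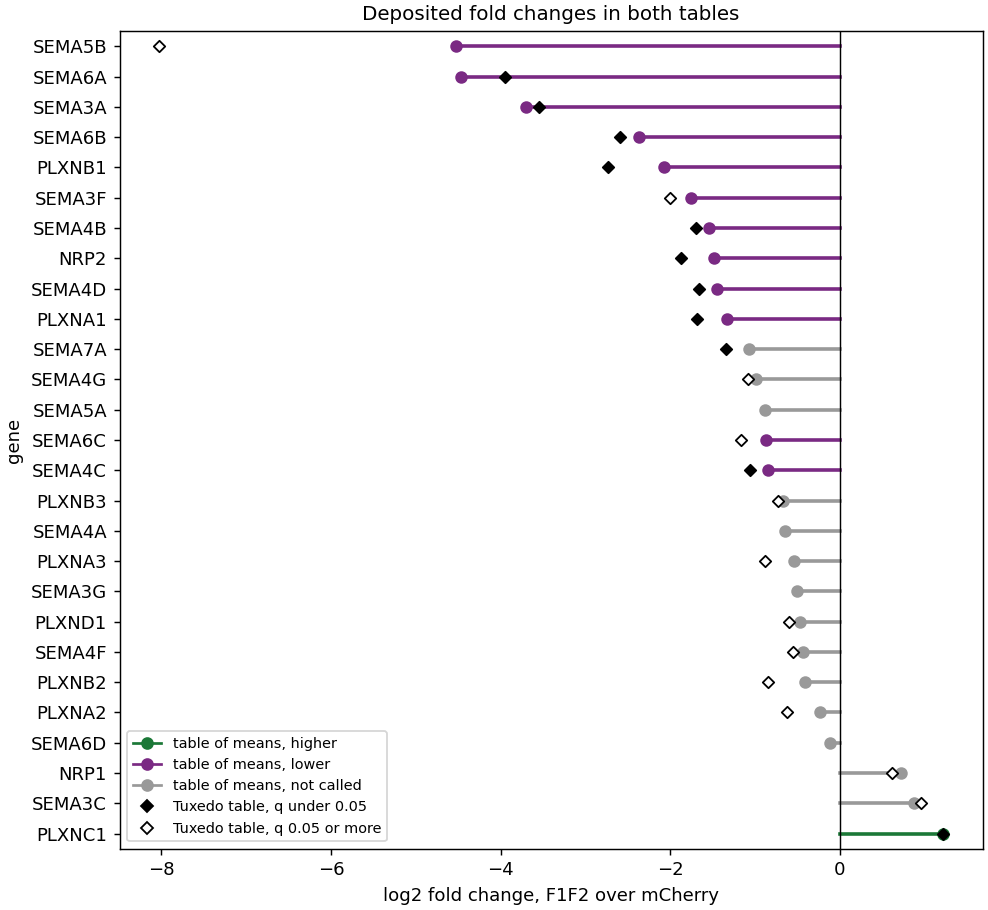
Log2 fold change of F1F2 over mCherry for the members, with circles and lines for the authors' table of means, coloured by call, and diamonds for the Tuxedo table, filled where q was under 0.05. SEMA5B, SEMA6A and SEMA3A lie farthest to the lower side, and PLXNC1 is the called member on the higher side.

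Class 3 semaphorins, the secreted class, did not move as one. SEMA3A, a repulsive cue that signals through NRP1 and plexins of the A type, lies at chr7:83587659-84122040 in build GRCh37. It had 17, 10.1 and 26.7 normalized counts in F1F2 libraries, against 172, 218 and 649 in mCherry libraries. Every F1F2 library was far below every mCherry library, and library 3 was the highest in each line. The mean of 18.0 ± 8.34 in F1F2 was 19.3-fold lower than the 346 ± 263 in mCherry (SD, n = 3 each). The authors' deposited table gives SEMA3A a log2 fold change of -3.70 (adjusted p = 6.2e-12). The limma estimate was -3.78 (adjusted p = 8.0e-05) without library 3 of both lines. Without library 3 of mCherry alone the F1F2 mean was 10.9-fold lower.

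SEMA3F, a ligand with a preference for NRP2, had 1071, 985 and 1302 normalized counts in F1F2 libraries, against 5234, 2833 and 3899 in mCherry libraries. The groups did not overlap, and the mCherry libraries were spread over a wider range. SEMA3F averaged 1119 ± 164 in F1F2 and 3989 ± 1203 in mCherry (SD, n = 3 each), 3.56-fold lower in F1F2. Its log2 fold change in the authors' deposited table was -1.76 (adjusted p = 7.2e-08). The limma estimate without library 3 was -1.91 (adjusted p = 0.00166). The authors' deposited Tuxedo table did not call it (q = 0.0857), and there its locus is joined with RBM5 and RBM6.

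SEMA3C, which can use either neuropilin, had values in the opposite direction. It had 11265, 12787 and 7328 normalized counts in F1F2 libraries, against 6183, 7300 and 3019 in mCherry libraries. The F1F2 libraries were all above the mCherry libraries, although library 3 of F1F2 was only just above library 2 of mCherry. The mean of 10460 ± 2817 in F1F2 was 1.90 times the 5501 ± 2221 in mCherry (SD, n = 3 each). SEMA3C did not pass the test in the authors' deposited table (log2 fold change 0.87, adjusted p = 0.0646). With library 3 of both lines left out, limma called it higher in F1F2 (log2 fold change 0.84, adjusted p = 0.00532), as it did with a term for library 3 (adjusted p = 0.00122). It lies at chr7:80371854-80551675, on the same chromosome as SEMA3A.

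The other class 3 members were close to absent. SEMA3D had 1 read in F1F2 and 3 in mCherry, and SEMA3E, a direct ligand of PLXND1, had 0 reads in F1F2 and 2 in mCherry, each summed over 3 libraries. SEMA3G had a mean of 3.04 normalized counts in F1F2 and 5.12 in mCherry. No difference in these genes was detectable at this depth.

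**Figure D2:**
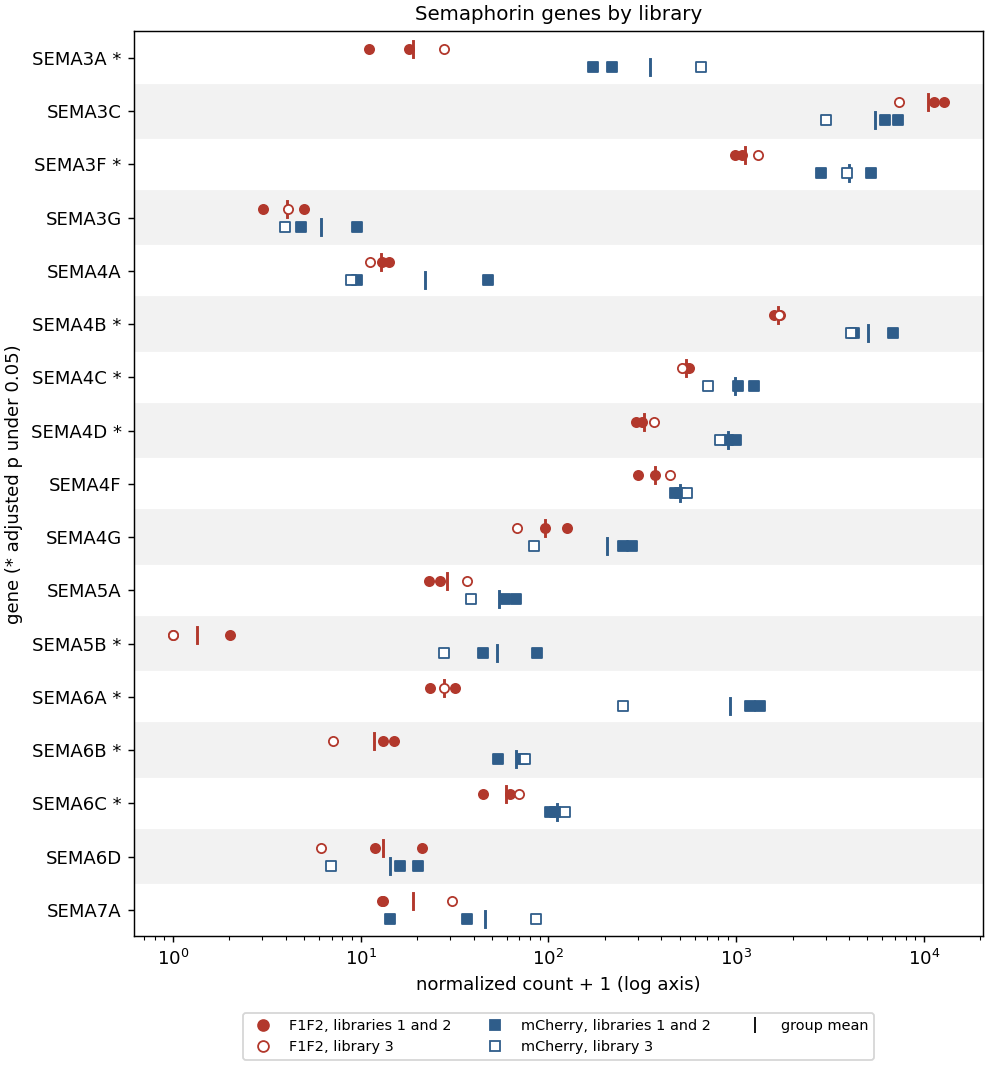
Normalized read counts of semaphorins in each of the 3 recovered F1F2 and 3 mCherry libraries, on a log axis, with points for libraries (open for library 3), short lines for group means and stars at adjusted p under 0.05. SEMA3A, SEMA4B and SEMA6A show wide gaps with F1F2 below mCherry, and SEMA3C shows F1F2 above.

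Class 4 semaphorins, which span the membrane, had 3 of 6 members lower and none higher. SEMA4B (chr15:90728152-90772892) had 1702, 1591 and 1688 normalized counts in F1F2 libraries, against 6851, 4242 and 4066 in mCherry libraries. The F1F2 values were tightly grouped and all lay below the lowest mCherry library. SEMA4B averaged 1660 ± 60.6 in F1F2 and 5053 ± 1560 in mCherry (SD, n = 3 each), 3.04-fold lower, with a log2 fold change of -1.55 (adjusted p = 7.29e-07) in the authors' deposited table.

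SEMA4D, the ligand of PLXNB1, lies at chr9:91975706-92112888. It had 314, 293 and 364 normalized counts in F1F2 libraries, against 905, 1002 and 817 in mCherry libraries. Both lines were narrow and well apart. Its mean of 324 ± 36.5 in F1F2 was 2.81-fold lower than the 908 ± 92.5 in mCherry (SD, n = 3 each), with a log2 fold change of -1.45 (adjusted p = 1.09e-08) in the authors' deposited table. Leaving library 3 of both lines out, limma gave -1.71 for SEMA4B (adjusted p = 0.00066) and -1.65 for SEMA4D (adjusted p = 0.00029).

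SEMA4C, a ligand of PLXNB2, changed less. It had 563, 537 and 512 normalized counts in F1F2 libraries, against 1242, 1020 and 707 in mCherry libraries. The groups did not overlap, and library 3 of mCherry came closest to F1F2. The mean of 537 ± 25.5 in F1F2 was 1.84-fold lower than the 989 ± 269 in mCherry (SD, n = 3 each), with a log2 fold change of -0.85 (adjusted p = 0.0135) in the authors' deposited table. With limma the call was lost in 5 of 6 fits that left out 1 library, namely each F1F2 library and libraries 1 and 2 of mCherry (adjusted p up to 0.119), and without library 3 of both lines it was kept (log2 fold change -1.03, adjusted p = 0.00256).

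The other 3 class 4 members were not called. SEMA4F had 369, 298 and 443 normalized counts in F1F2 libraries, against 470, 499 and 543 in mCherry libraries, with no overlap and adjusted p = 0.209 in the authors' deposited table. SEMA4G had 124, 95.2 and 66.8 normalized counts in F1F2 libraries, against 279, 249 and 82.9 in mCherry libraries. Those libraries overlapped, and the adjusted p for SEMA4G was 0.082 in the authors' deposited table. SEMA4G was called lower by limma without library 3 of both lines (log2 fold change -1.27, adjusted p = 0.0044) and with a term for library 3 (adjusted p = 0.0144). SEMA4A was low in both lines, at 11.8 ± 1.45 in F1F2 and 21.0 ± 22.1 in mCherry (SD, n = 3 each).

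Class 6 semaphorins, transmembrane ligands of plexins of the A type, had 3 of 4 members lower. SEMA6A, which binds PLXNA2 and PLXNA4, lies at chr5:115779312-115927094. It had 31.0, 22.3 and 26.7 normalized counts in F1F2 libraries, against 1342, 1186 and 249 in mCherry libraries. The F1F2 libraries sat at a low, even level, while library 3 of mCherry was far below the other mCherry libraries and still above all of F1F2. The mean of 26.7 ± 4.36 in F1F2 was 34.7-fold lower than the 926 ± 591 in mCherry (SD, n = 3 each). SEMA6A had a log2 fold change of -4.47 (adjusted p = 5.07e-18) in the authors' deposited table. Leaving out library 3 of both lines moved the limma estimate to -5.53, against -4.74 with all libraries (adjusted p = 1.15e-06 and 0.00352).

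SEMA6B (chr19:4542600-4558507) had 14.0, 12.2 and 6.17 normalized counts in F1F2 libraries, against 71.2, 52.6 and 74.0 in mCherry libraries. It averaged 10.8 ± 4.1 in F1F2 and 65.9 ± 11.6 in mCherry (SD, n = 3 each), 6.12-fold lower, with adjusted p = 8.05e-07 in the authors' deposited table. The groups were well separated at a low level in both lines, and limma gave -2.15 without library 3 of both lines (adjusted p = 0.00211). SEMA6C (chr1:151104161-151119104) had 44.0, 61.8 and 68.9 normalized counts in F1F2 libraries, against 107, 101 and 121 in mCherry libraries. Its mean of 58.2 ± 12.8 in F1F2 was 1.89-fold lower than the 110 ± 10.3 in mCherry (SD, n = 3 each; adjusted p = 0.0258 in the authors' deposited table). The libraries did not overlap, but with limma the SEMA6C call was lost when any 1 of the 6 libraries was left out (adjusted p 0.0603 to 0.181). Without library 3 of both lines it was kept (adjusted p = 0.029). SEMA6C was also not called in the authors' deposited Tuxedo table (q = 0.369). SEMA6D, a ligand of PLXNA1, was at a mean of 12.1 in F1F2 and 13.4 in mCherry and was not called.

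Classes 5 and 7 were low in both lines, and 1 of their 3 members, SEMA5B, fell. SEMA5B, a semaphorin with thrombospondin repeats at chr3:122628041-122747452, had 0, 1.01 and 0 normalized counts in F1F2 libraries, against 86.3, 44.0 and 26.7 in mCherry libraries. F1F2 held 1 read of it in all, and mCherry held 164. The ratio of reads per size factor was 156-fold lower in F1F2, with a 95% exact interval of 27.6 to 6196 that covers counting error only. The adjusted p for SEMA5B was 1.28e-10 in the authors' deposited table. In limma without library 3 of both lines its adjusted p was 0.000204. The authors' deposited Tuxedo table gave it a q of 0.467. SEMA5A, a ligand of PLXNB3, had 22.0, 25.3 and 36.0 normalized counts in F1F2 libraries, against 57.9, 66.0 and 37.5 in mCherry libraries. These did not overlap, but SEMA5A was not called in the authors' deposited table (adjusted p = 0.0904), and limma called it lower without library 3 of both lines (log2 fold change -1.35, adjusted p = 0.0119) and with a term for library 3 (adjusted p = 0.0454). SEMA7A, a membrane-anchored ligand of PLXNC1 and beta1 integrin, had 12.0, 12.2 and 29.8 normalized counts in F1F2 libraries, against 36.1, 13.4 and 84.9 in mCherry libraries. Its groups overlapped, with an adjusted p of 0.165 for the means and a q of 0.0176 for Tuxedo in the authors' deposited tables.

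Among the receptors, PLXNB1, the receptor of SEMA4D, had the largest fall in log2 fold change. It lies at chr3:48445261-48471594 and had 3773, 3965 and 1772 normalized counts in F1F2 libraries, against 22251, 17044 and 7073 in mCherry libraries. Library 3 was the lowest in each line, and the lowest mCherry library was still above the highest F1F2 library. The mean of 3170 ± 1214 in F1F2 was 4.88-fold lower than the 15456 ± 7713 in mCherry (SD, n = 3 each). The authors' deposited table gives PLXNB1 a log2 fold change of -2.08 (adjusted p = 2.05e-05). The limma estimate was -2.22 (adjusted p = 0.0199) with all libraries and -2.33 (adjusted p = 3.14e-05) without library 3 of both lines. Leaving out library 1 or 2 of either line alone lost the limma call (adjusted p up to 0.0721).

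PLXNA1, a receptor for class 3 and class 6 semaphorins, lies at chr3:126707437-126756235. It had 1481, 1340 and 2487 normalized counts in F1F2 libraries, against 4722, 4106 and 5121 in mCherry libraries. Library 3 was again the highest in each line, and the groups did not overlap. PLXNA1 averaged 1769 ± 626 in F1F2 and 4649 ± 511 in mCherry (SD, n = 3 each), 2.63-fold lower, with a log2 fold change of -1.33 (adjusted p = 0.00014) in the authors' deposited table. The limma estimate was -1.64 (adjusted p = 0.00014) without library 3 of both lines, and without library 1 of F1F2 alone the adjusted p was 0.0501.

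PLXNC1, the receptor of SEMA7A, was the member that rose. It lies at chr12:94542748-94701444 and had 117, 92.2 and 110 normalized counts in F1F2 libraries, against 45.5, 45.0 and 41.5 in mCherry libraries. The libraries of each line were close together, and the lines were apart. The mean of 106 ± 12.8 in F1F2 was 2.42 times the 44.0 ± 2.2 in mCherry (SD, n = 3 each), with a log2 fold change of 1.22 (adjusted p = 0.00067) in the authors' deposited table. In limma the estimate was 1.18 (adjusted p = 0.0126) without library 3 of both lines. The call was lost without library 1 or library 2 of F1F2 alone (adjusted p up to 0.0851).

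The remaining plexins did not pass the test. PLXNA2, a receptor of SEMA6A, had 3133, 2743 and 5867 normalized counts in F1F2 libraries, against 3928, 4285 and 5756 in mCherry libraries. PLXNA3 had 2016, 1715 and 1167 normalized counts in F1F2 libraries, against 3914, 2175 and 1249 in mCherry libraries. PLXNB2, the receptor of SEMA4C, had 6578, 6510 and 4934 normalized counts in F1F2 libraries, against 11482, 6476 and 6390 in mCherry libraries. In each of these 3 genes the lines overlapped, and the adjusted p was 0.655, 0.34 and 0.34 in the authors' deposited table. PLXND1, the receptor of SEMA3E, had 668, 535 and 646 normalized counts in F1F2 libraries, against 1063, 1052 and 488 in mCherry libraries. Library 3 of mCherry lay below all F1F2 libraries, and the adjusted p for PLXND1 was 0.322 in the authors' deposited table. It was called lower by limma without library 3 of both lines (log2 fold change -0.82, adjusted p = 0.00816), as was PLXNA2 (-0.48, adjusted p = 0.0454). With all libraries and a term for library 3, limma called neither of them (adjusted p = 0.193 for PLXND1 and 0.139 for PLXNA2). PLXNB3, the receptor of SEMA5A, had 175, 168 and 126 normalized counts in F1F2 libraries, against 342, 208 and 212 in mCherry libraries, with no overlap and adjusted p = 0.103 in the authors' deposited table. With the term for library 3, limma called PLXNB3 lower (log2 fold change -0.67, adjusted p = 0.0365). PLXNA4 had 4 reads in F1F2 and 5 in mCherry in all.

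**Figure D3:**
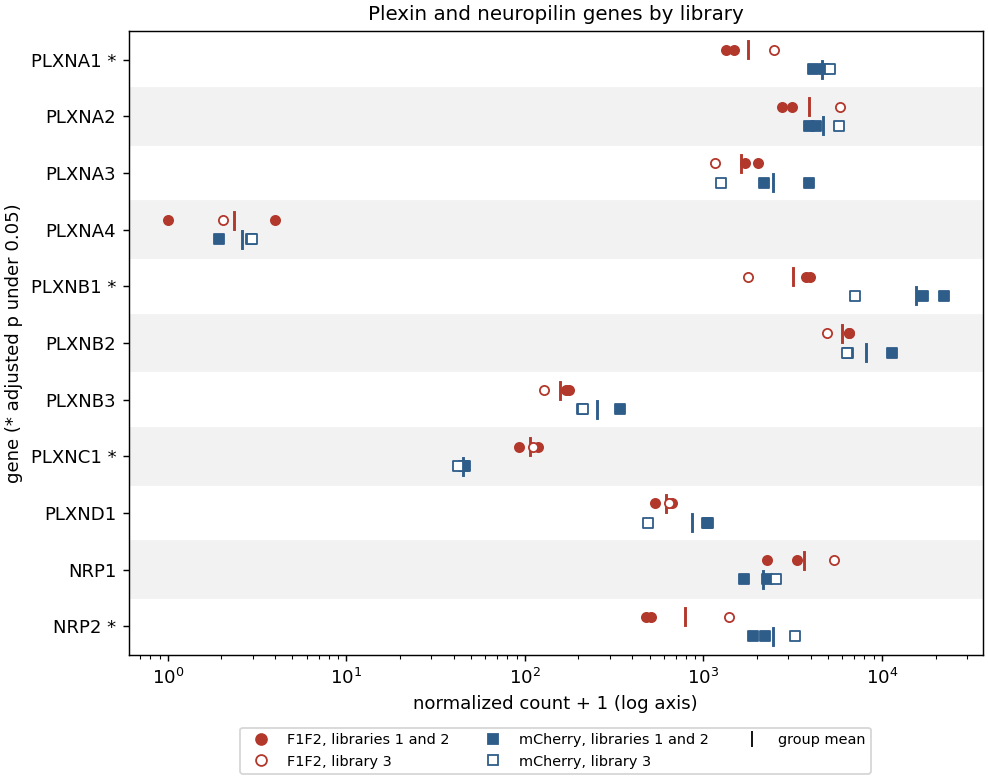
Normalized read counts of plexins and neuropilins in each of the 3 recovered F1F2 and 3 mCherry libraries, on a log axis, with points for libraries (open for library 3), short lines for group means and stars at adjusted p under 0.05. PLXNB1, PLXNA1 and NRP2 are lower in F1F2 with no overlap, PLXNC1 is higher, and NRP1 overlaps.

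Of the neuropilins, co-receptors of class 3 semaphorins and of VEGF, NRP2 fell and NRP1 was not called. NRP2 (chr2:206546714-206662857) had 509, 477 and 1396 normalized counts in F1F2 libraries, against 1905, 2228 and 3248 in mCherry libraries. Library 3 was the highest in each line, and its F1F2 value remained below the lowest mCherry value. The mean of 794 ± 522 in F1F2 was 3.10-fold lower than the 2461 ± 701 in mCherry (SD, n = 3 each), with a log2 fold change of -1.49 (adjusted p = 0.00318) in the authors' deposited table. The limma estimate was -1.78 (adjusted p = 0.0261) with all libraries and -2.06 (adjusted p = 5.34e-05) without library 3 of both lines. Leaving out library 1 or 2 of either line alone lost the NRP2 call (adjusted p up to 0.0945). Without library 3 of F1F2 the means were 4.99-fold apart.

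NRP1 (chr10:33466420-33625190) had 3339, 2286 and 5418 normalized counts in F1F2 libraries, against 1700, 2267 and 2547 in mCherry libraries. Library 2 of F1F2 fell within the mCherry range. Its mean of 3681 ± 1594 in F1F2 was 1.70 times the 2171 ± 431 in mCherry (SD, n = 3 each), and it did not pass the test in the authors' deposited table (log2 fold change 0.72, adjusted p = 0.117). The limma adjusted p was 0.149 with all libraries and 0.109 without library 3 of both lines. A term for library 3, added after seeing the data, made NRP1 a call on the higher side (log2 fold change 0.69, adjusted p = 0.0205).

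Ratios of related genes within a library remove what the genes share in that library. The pairs were chosen after the values had been seen, each joining a gene that fell with one that was not called, so the ratios are given as a description. The ratio of NRP1 to NRP2 counts was 6.56, 4.79 and 3.88 in F1F2 libraries, against 0.892, 1.02 and 0.784 in mCherry libraries. On the log2 scale that ratio averaged 2.31 ± 0.38 in F1F2 and -0.16 ± 0.19 in mCherry (SD, n = 3 each), a difference of 2.47, or 2.56 without library 3 of both lines. The ratio was higher in every F1F2 library. These counts are not corrected for gene length, so a ratio compares libraries and not the genes' levels.

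The ratio of PLXNB1 to PLXNB2 was 0.574, 0.609 and 0.359 in F1F2 libraries, against 1.94, 2.63 and 1.11 in mCherry libraries. Every F1F2 ratio was below every mCherry ratio, a log2 difference of -1.83. The ratio of SEMA3C to SEMA3F was 10.5, 13.0 and 5.63 in F1F2 libraries, against 1.18, 2.58 and 0.774 in mCherry libraries, a log2 difference of 2.78. The ratio of PLXNA1 to PLXNA2 was 0.473, 0.488 and 0.424 in F1F2 libraries, against 1.20, 0.958 and 0.890 in mCherry libraries, a log2 difference of -1.13. The lines did not overlap in any of the 4 pairs, which the choice of pairs made likely.

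**Figure D4:**
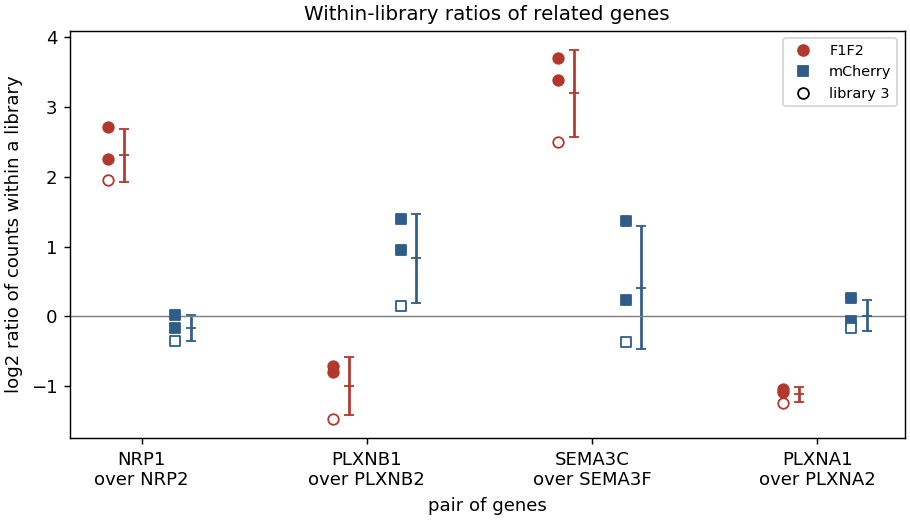
Log2 ratio of the normalized counts of related genes within each library, for 4 pairs in the 3 F1F2 and the 3 mCherry libraries (open points for library 3), with the mean and SD beside them. F1F2 lies above mCherry for NRP1 to NRP2 and SEMA3C to SEMA3F, and below it for PLXNB1 to PLXNB2 and PLXNA1 to PLXNA2, with no overlap.

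Levels of different genes can be compared per length in FPKM, which the authors' deposited Tuxedo table gives as 1 value per line, with no spread. The 19 semaphorins summed to 180 FPKM in F1F2 and 286 FPKM in mCherry in the authors' deposited Tuxedo table. SEMA3C made up 61.1% of that sum in F1F2 and 19.9% in mCherry, from 110 and 56.8 FPKM in the authors' deposited Tuxedo table. SEMA3F made up 13.5% in F1F2 and 34.2% in mCherry, and SEMA4B 10.7% in F1F2 and 22.0% in mCherry, by the authors' deposited Tuxedo table. SEMA3F thus led the semaphorins of mCherry cells per length, and SEMA3C those of F1F2 cells. Without SEMA3C the other semaphorins summed to 69.9 FPKM in F1F2 and 229 FPKM in mCherry in the authors' deposited Tuxedo table.

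The plexins summed to 341 FPKM in F1F2 and 950 FPKM in mCherry in the authors' deposited Tuxedo table. PLXNB1 was the leading plexin of mCherry cells and PLXNB2 that of F1F2 cells. PLXNB1 held 19.2% of the plexin sum in F1F2 and 45.8% in mCherry, and PLXNB2 held 42.7% in F1F2 and 27.6% in mCherry, by the authors' deposited Tuxedo table. For the neuropilins the sums were 72.3 FPKM in F1F2 and 122 FPKM in mCherry, of which NRP1 held 65.7% in F1F2 and 25.4% in mCherry, by the authors' deposited Tuxedo table.

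**Figure D5:**
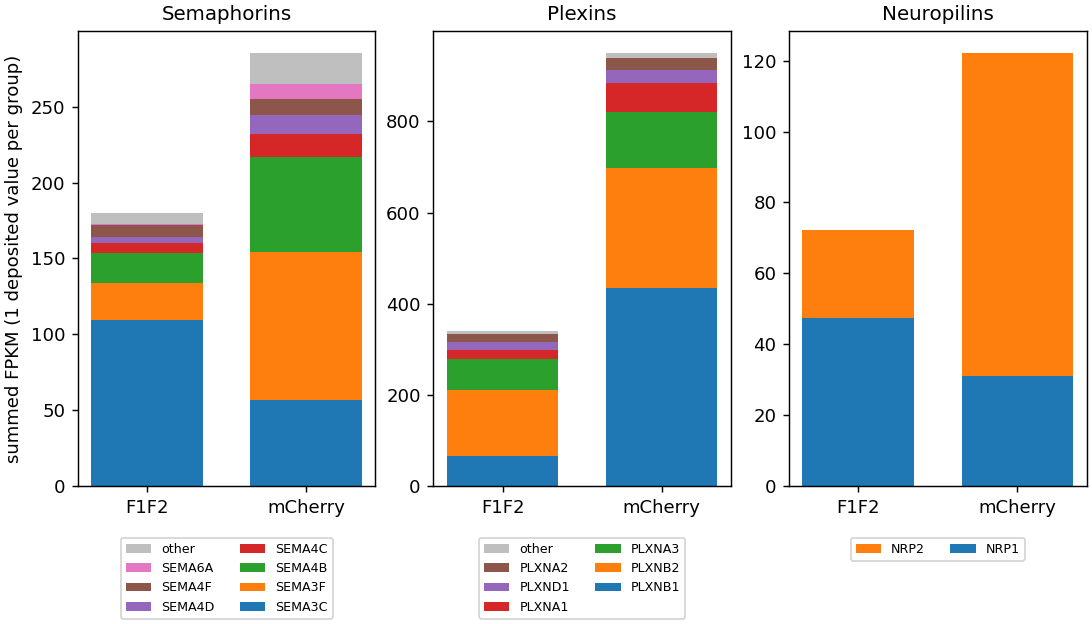
FPKM of semaphorins, plexins and neuropilins per line in the authors' deposited Tuxedo table, stacked by gene, with F1F2 left of mCherry. SEMA3C, PLXNB2 and NRP1 take the largest parts in F1F2, and SEMA3F, PLXNB1 and NRP2 in mCherry.

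Promoter windows are shown for called members from different parts of the pathway, a ligand that fell, a co-receptor and a plexin that fell, and the plexin that rose. They are the 250 bases before a RefSeq transcript start in build GRCh38.p14, which is not the build of the deposited files. The windows are chr3:50154808-50155057 for SEMA3F, chr2:205682251-205682500 for NRP2, chr3:126982865-126983114 for PLXNA1 and chr12:94148327-94148576 for PLXNC1, each on the plus strand. Capitals mark a match to CACCTG or, on the other strand, CAGGTG. This is the E-box that the repressor ZEB1 can bind. ZEB1 averaged 909 ± 208 normalized counts in F1F2 and 156 ± 22.8 in mCherry (SD, n = 3 each). Of the other E-cadherin repressors listed, ZEB2 rose as well. SNAI1, SNAI2 and TWIST1 were not called (adjusted p = 0.547, 0.136 and 0.351 in the authors' deposited table). Whether ZEB1 acts on any member was not tested.
SEMA3F: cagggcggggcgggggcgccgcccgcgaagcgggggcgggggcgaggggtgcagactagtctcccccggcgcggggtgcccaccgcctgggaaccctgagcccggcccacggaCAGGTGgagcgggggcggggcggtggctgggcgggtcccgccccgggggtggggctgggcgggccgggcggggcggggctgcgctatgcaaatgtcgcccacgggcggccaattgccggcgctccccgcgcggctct
NRP2: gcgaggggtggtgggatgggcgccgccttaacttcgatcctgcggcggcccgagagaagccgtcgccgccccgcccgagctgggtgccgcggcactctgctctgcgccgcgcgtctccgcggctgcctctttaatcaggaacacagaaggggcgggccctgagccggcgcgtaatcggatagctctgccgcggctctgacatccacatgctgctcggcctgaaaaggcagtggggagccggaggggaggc
PLXNA1: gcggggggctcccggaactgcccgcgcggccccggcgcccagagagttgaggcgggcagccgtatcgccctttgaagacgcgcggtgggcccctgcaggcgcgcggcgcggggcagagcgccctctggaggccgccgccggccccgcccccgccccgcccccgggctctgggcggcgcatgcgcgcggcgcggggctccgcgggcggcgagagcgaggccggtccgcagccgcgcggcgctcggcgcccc
PLXNC1: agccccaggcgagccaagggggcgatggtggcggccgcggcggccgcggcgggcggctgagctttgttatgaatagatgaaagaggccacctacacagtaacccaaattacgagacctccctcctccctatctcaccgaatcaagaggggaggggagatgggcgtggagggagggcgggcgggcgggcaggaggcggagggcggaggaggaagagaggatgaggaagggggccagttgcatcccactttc
This SEMA3F window holds 1 match, and the other 3 windows printed hold none. SEMA3F has 3 windows in all, of which the other 2 hold no match, and the printed one was chosen for its match. RefSeq windows were found for 26 of the 30 members, 43 in all, with SEMA3A, SEMA6A, SEMA6B and NRP1 not matched. The motif was in 1 of 16 windows (6.25%) of members that fell, in 0 of 2 of PLXNC1 and in 5 of 43 (11.6%) of all members, beside 17.5% of all 35116 windows. A match is a description of letters and not a binding site.

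Genes that work with the family were counted from lists by role. Of 65 listed gene names 63 were found in the authors' deposited table, and 60 of these had an adjusted p. Of the 60, 15 (25.0%) fell while 8 (13.3%) rose, beside the 12.0% and 11.6% of all tested genes. Their median log2 fold change was -0.12 in the authors' deposited table. The receptor, VEGF and protease lists had no member that rose. They held only 13, 5 and 7 tested genes, so few would rise at the 11.6% of all tested genes. In the 2 effector lists 22.2% and 23.5% of tested genes rose, while 5.56% and 11.8% fell. Of the 23 called partners limma called 20 with all libraries, not L1CAM, RRAS and MMP14, and 22 without library 3 of both lines, not RRAS. The authors' deposited Tuxedo table did not call TREM2, ITGA1, L1CAM, SH3BP1, PCSK5, ADAM10, FARP1, MRAS, MICAL2, MICAL3 and CDK5 among them (q 0.0547 to 0.806).

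Of 13 tested co-receptors and other receptors, 5 fell, namely TREM2, ITGA1, MET, L1CAM and PTK7. L1CAM overlapped between lines, and its mean was 2.95-fold lower in F1F2, or 1.45-fold lower without library 3 of mCherry. TREM2, a partner of PLXNA1 in myeloid cells, had 0, 3.04 and 0 normalized counts in F1F2 libraries, against 41.7, 43.0 and 19.7 in mCherry libraries (adjusted p = 3.31e-07 in the authors' deposited table). ITGA1, a chain of an integrin that binds SEMA7A, had 299, 392 and 624 normalized counts in F1F2 libraries, against 1357, 2134 and 1088 in mCherry libraries. ITGA1 was 3.48-fold lower in F1F2, with adjusted p = 5.46e-05 in the authors' deposited table. MET, the scatter factor receptor that can associate with plexins of the B type, had 3060, 3243 and 4537 normalized counts in F1F2 libraries, against 11493, 13846 and 9972 in mCherry libraries. These 3 genes showed no overlap between lines, and MET was 3.26-fold lower in F1F2 (adjusted p = 2.19e-08 in the authors' deposited table). ERBB2 did not pass in the authors' deposited table of means (log2 fold change -0.61, adjusted p = 0.0569) but was called lower in the authors' deposited Tuxedo table (q = 0.0302). Its lines did not overlap, and limma gave an adjusted p of 0.0623 with all libraries and 0.0411 without library 3 of both lines.

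Of 5 tested VEGF ligands, PGF and VEGFA fell. VEGFA, whose longer forms bind NRP1, had 2409, 2096 and 2734 normalized counts in F1F2 libraries, against 5742, 6009 and 6610 in mCherry libraries. It was 2.54-fold lower in F1F2, with adjusted p = 6.61e-08 in the authors' deposited table. PGF, placental growth factor, was 5.14-fold lower in F1F2, with adjusted p = 4.82e-05 in the authors' deposited table and 9.25 to 25.3 normalized counts in F1F2 libraries against 62.2 to 98.7 in mCherry libraries. Without library 2 of F1F2 it was 7.94-fold lower.

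Semaphorins are cut by proprotein convertases and shed by metalloproteases, and 5 of 7 such proteases fell, namely PCSK5, PCSK6, ADAM17, ADAM10 and MMP14. PCSK6 had 464, 673 and 465 normalized counts in F1F2 libraries, against 1562, 1785 and 1719 in mCherry libraries, and was 3.16-fold lower in F1F2 (adjusted p = 6.98e-09 in the authors' deposited table). PCSK5 had 17, 16.2 and 19.5 normalized counts in F1F2 libraries, against 60.7, 51.6 and 74.0 in mCherry libraries, and was 3.53-fold lower (adjusted p = 0.000139 in the authors' deposited table). Neither overlapped between lines. FURIN, the best known convertase of class 3 semaphorins, averaged 4103 ± 237 in F1F2 and 3898 ± 1129 in mCherry (SD, n = 3 each; adjusted p = 0.885 in the authors' deposited table).

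Downstream of plexins, 18 tested GTPases and their regulators held 1 that fell, SH3BP1, and 4 that rose, FARP1, RHOA, RRAS and MRAS. SH3BP1, a GTPase-activating protein for Rac, had 24.0, 18.2 and 62.7 normalized counts in F1F2 libraries, against 283, 172 and 370 in mCherry libraries. It was 7.86-fold lower in F1F2, with adjusted p = 1.34e-07 in the authors' deposited table, and 13.0-fold lower without library 3 of F1F2. The authors' deposited Tuxedo table did not call SH3BP1 (q = 0.0554). FARP1, an exchange factor with a FERM domain, had 2026, 2158 and 2336 normalized counts in F1F2 libraries, against 881, 897 and 1236 in mCherry libraries (adjusted p = 0.000125 in the authors' deposited table). RHOA, the GTPase that plexins of the B type can activate, had 10764, 12368 and 12686 normalized counts in F1F2 libraries, against 5574, 5272 and 7972 in mCherry libraries (adjusted p = 0.0035 in the authors' deposited table). None of these overlapped between lines, with FARP1 2.16 times and RHOA 1.90 times as high in F1F2.

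Of 17 tested MICAL, CRMP and kinase genes, MICAL3 and LIMK2 fell and FYN, DPYSL2, CDK5 and MICAL2 rose. FYN, a kinase that acts below plexins of the A type, had 120, 164 and 129 normalized counts in F1F2 libraries, against 29.4, 17.2 and 57.3 in mCherry libraries. DPYSL2, which encodes the collapsin response mediator CRMP2, had 3698, 4100 and 3982 normalized counts in F1F2 libraries, against 1157, 1592 and 2077 in mCherry libraries. FYN was 3.97 times and DPYSL2 2.44 times as high in F1F2, with adjusted p of 0.000208 and 0.000112 in the authors' deposited table. LIMK2, a kinase of cofilin, had 2481, 2755 and 1952 normalized counts in F1F2 libraries, against 4365, 4238 and 3372 in mCherry libraries (adjusted p = 0.0207 in the authors' deposited table). MICAL3, an actin-oxidising monooxygenase, was 1.91-fold lower in F1F2 (adjusted p = 0.0306 in the authors' deposited table), at 362 to 768 normalized counts in F1F2 libraries against 912 to 1258 in mCherry libraries. All 4 of these genes were apart between lines.

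By position, 6 members lie on chromosome 3, and 4 of them, SEMA3F, SEMA5B, PLXNB1 and PLXNA1, fell, while PLXND1 and SEMA3G were not called. Over all 1149 tested genes of chromosome 3, 11.8% fell and 12.5% rose in the authors' deposited table. On chromosome 7, which holds SEMA3A, SEMA3C, SEMA3D, SEMA3E and PLXNA4, only 2 of the 5 members were tested and SEMA3A fell, beside 10.6% of tested genes there in the authors' deposited table.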

How the data were processed

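RNA of 3 F1F2 and 3 mCherry samples, grouped by their titles, was sequenced from a stranded mRNA library kit, per the labels' protocols. The submitters' processing notes name bcl2fastq, the tools DESeq2 1.18.1, HISAT2 2.1.0 and HTSeq 0.9.1, and build GRCh37. The strand setting of the counting was not given in the sources used here, so reads of overlapping or antisense genes could not be told apart. The first deposited table holds the authors' group means as a signal, namely size-factor-normalized read counts, with the authors' log2 fold changes, p-values and adjusted p-values, per the file headers. The second deposited table, from the Tuxedo pipeline, holds the authors' FPKM per group, a test score (not used), log2 fold changes and q-values, per the file headers. Positions are the locus of that table in GRCh37, counted from 1, and 17 of the 30 member loci hold another annotated gene.

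Whole reads per library were recovered from the 15 significant digits of each mean, since a mean combines 3 whole counts through the 3 size factors. A single solution was found for 99.70% of F1F2 means and 99.72% of mCherry means above 0, and altered means were solved in 0.05% and 0.0% of 2000 trials. All members were solved, and 111 highly expressed genes were not. Recovery and fit were tested on simulated data. The main result is the authors' adjusted p under 0.05. limma 3.58.1 (R 4.3.3, trend and robust, Benjamini-Hochberg) was fitted to log2(normalized count + 1) for the 15900 genes with a mean of at least 10, and its log2 fold changes are on that scale. Tables were made with Python 3.11.15, pandas 2.3.3 and scipy 1.17.1. Alternatives were other thresholds, filters, pseudocounts and scalings, the Tuxedo table, and leaving out libraries.

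Members called, or with a mean of at least 100, were named with full values, and of each partner list the called genes with the 2 largest changes per direction. MET, ERBB2 and FURIN were named outside this rule, after their values were seen. The members and lists were chosen with earlier results of these data known. Depth was 18510730 to 19647934 recovered reads per library, and the interval given for a ratio of reads covers counting error only.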

Additional observations from a re-analysis of the deposited data

How the results depend on the processing

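With limma, 7 to 14 members fell and 0 to 1 rose when 1 library was left out, against 12 and 1 with all libraries. SEMA3A, SEMA3F, SEMA4B, SEMA4D, SEMA5B, SEMA6A and SEMA6B were called in all 6 of these fits. Without library 3 of both lines 16 fell and 2 rose, and with a term for library 3 15 fell and 3 rose (NRP1, PLXNC1 and SEMA3C). That term added SEMA4G, SEMA5A and PLXNB3 to those that fell, and did not call PLXND1 and PLXNA2. The fit with that term and the ratios within libraries were chosen after seeing the data. Only members with a mean of at least 100 left 0 that rose, in the deposited table and in limma, because PLXNC1 has a lower overall mean. At an adjusted p under 0.1, 2 members rose in the deposited table. Of the partners, 9 fell in the Tuxedo table, the cause of which was not tested, and 5 rose at an adjusted p under 0.01. Counts of members that fell were 9 to 14 in the deposited tables under other thresholds and filters. PLXND1, SEMA4G and SEMA5A were also called lower without library 3 of mCherry alone. No called member's log2 fold change turned sign under the alternatives run. The deposited group names hold sample numbers that alternate between the lines, and whether these mark pairs is not stated. No paired analysis was possible because the recovered libraries could not be tied to these numbers or to the labels' replicate numbers. The term for library 3 is the nearest fit to a block that was run. Depth limits SEMA3D, SEMA3E, SEMA3G and PLXNA4, which had at most 16 reads in a line.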

Other observations

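SEMA3B, a class 3 semaphorin, is listed in the deposited table with the feature type of a processed transcript and so is not among the protein-coding members. It had 184, 122 and 237 normalized counts in F1F2 libraries, against 316, 159 and 146 in mCherry libraries. The lines overlapped, with adjusted p = 0.776 in the authors' deposited table.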
